A study of Danio rerio with 17 samples.

Results

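Open chromatin was compared between prdm3 mutant and wild type cranial neural crest cells of the zebrafish with 4 ATAC-seq libraries, 2 wild type and 2 prdm3-/-. These are 4 of the 17 samples of the series and 4 of its 8 ATAC libraries. The cells carried the sox10:GFP reporter, were collected by cell sorting from pooled embryos at 48 hours post fertilization, and had the same reporter and age in both groups, so that the homozygous prdm3 mutation is the labelled difference. The remaining 4 ATAC libraries, 2 wild type and 2 prdm16-/- from the same kind of sorted cells and stage, form a separate set (the prdm16 set). They serve here only as further wild type and mutant libraries. The sample titles do not say whether the prdm3 and prdm16 sets were sorted together. The labels do not say whether the libraries came from separate clutches, so the spread between them may be partly technical.

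ATAC-seq uses a transposase that inserts sequencing adapters into DNA not covered by nucleosomes, so that a peak of fragments marks an accessible region such as a promoter, an enhancer or an insulator. Cranial neural crest cells migrate into the pharyngeal arches and form the cartilage and bone of the face. The reporter gene sox10 is a crest transcription factor that also stays on in pigment cells and glia and is active in the otic vesicle, so a sort by this reporter can hold several cell types. Prdm3, encoded by mecom, is a zinc finger protein with a PR domain related to that of histone methyltransferases. In mammals it has been linked to histone H3 methylation and to the organisation of heterochromatin, and the series title names PRDM proteins as regulators of Wnt/β-catenin signalling in differentiating facial cartilage cells.

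The members are all peaks deposited for the 4 libraries, 55226 in number, merged where they shared 1 bp or more into 21106 regions. Peaks were called by the authors in each library separately, and the −log10 p of a peak is the authors' value and was used only to rank peaks within a library. The percentile of a peak is its place in that ranking, with 100 for the strongest. Regions are given on build danRer11. The deposited peak lists hold positions and no gene names, and no gene positions of this build were used here, so regions are named by position, the identity of the sorted cells was not checked against marker genes, and the mutation was not checked at mecom. The depth of the libraries is unknown, since no source used here gives read totals, and a region without a peak may be accessible below the authors' threshold.

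More regions were called as open in the mutant libraries. Mutant replicates 1 and 2 had 18266 and 15115 peaks, and wild type replicates 1 and 2 had 13658 and 8187. Both mutant libraries lay above both wild type libraries, but wild type replicate 1 was closer to mutant replicate 2 than to the other wild type library. On the log2 scale the mean difference was 0.65, with p = 0.333 in a two-sided exact permutation test over the 4 libraries. This is the smallest p that the test allows for 2 against 2 libraries, so it cannot pass a threshold of 0.05 here. Without wild type replicate 2 the difference was 0.28. The peaks covered 12.6 and 10.8 Mb in the mutant libraries and 9.96 and 6.92 Mb in the wild type libraries.

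A wild type library from outside the set lay with the prdm3 mutants in its ranks rather than with the wild types. It is wild type by its label, which was not checked, and the part of depth or library quality in its position was not tested, so each wild type level below may depend on which wild type libraries are used. Replicates 1 and 2 of the prdm16 set wild type had 14074 and 6777 peaks. With these libraries added, both prdm3 mutants still lay above all 4 wild types in peak number, with a log2 difference of 0.71 (exact permutation test, p = 0.133). In 4745 regions with a peak in all 6 libraries, Spearman's rho of the peak ranks was 0.92 between the 2 prdm3 mutants. The prdm16 set wild type replicate 1 had rho values of 0.89 and 0.91 with prdm3 mutant replicates 1 and 2, and 0.75 and 0.59 with wild type replicates 1 and 2. Replicate 2 of the same outside group had 0.64 and 0.71 with the mutants and 0.83 and 0.85 with the wild types. These correlations run across regions, which share the library's depth and base composition, and are given as a description only. Wild type replicate 1 of the prdm3 set had 0.76 and 0.80 with the mutants, and 0.80 with wild type replicate 2. Wild type replicate 2 had 0.53 and 0.63 with the mutants. The 4 wild type libraries thus ranged in how far they ranked their regions as the prdm3 mutants did, with the prdm16 set wild type replicate 1 the closest.

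A core of 5698 regions had a peak in all 4 libraries of the prdm3 set, 27.0% of all regions. Next in size were the 4933 regions with a peak in both mutants and wild type replicate 1 but not in wild type replicate 2. Mutant replicate 1 alone held 3331 regions. A peak in both mutant libraries and in neither wild type library was found in 2967 regions, 14.1% of all regions. The opposite pattern, both wild type libraries and neither mutant library, was found in 685 regions, 3.25% of all regions. The difference of 2282 regions had p = 0.333 in the two-sided exact permutation test over the 4 libraries. Patterns that pair 1 mutant with 1 wild type library and lack the others held 10 to 643 regions. The count for the mutants rests on wild type replicate 1, since without it 7915 regions had a peak in both mutants and not in wild type replicate 2. It also rests on mutant replicate 2, without which the count was 6361. For the wild types, the count was 1732 without wild type replicate 1 and 1472 without wild type replicate 2.

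**Figure D1:**
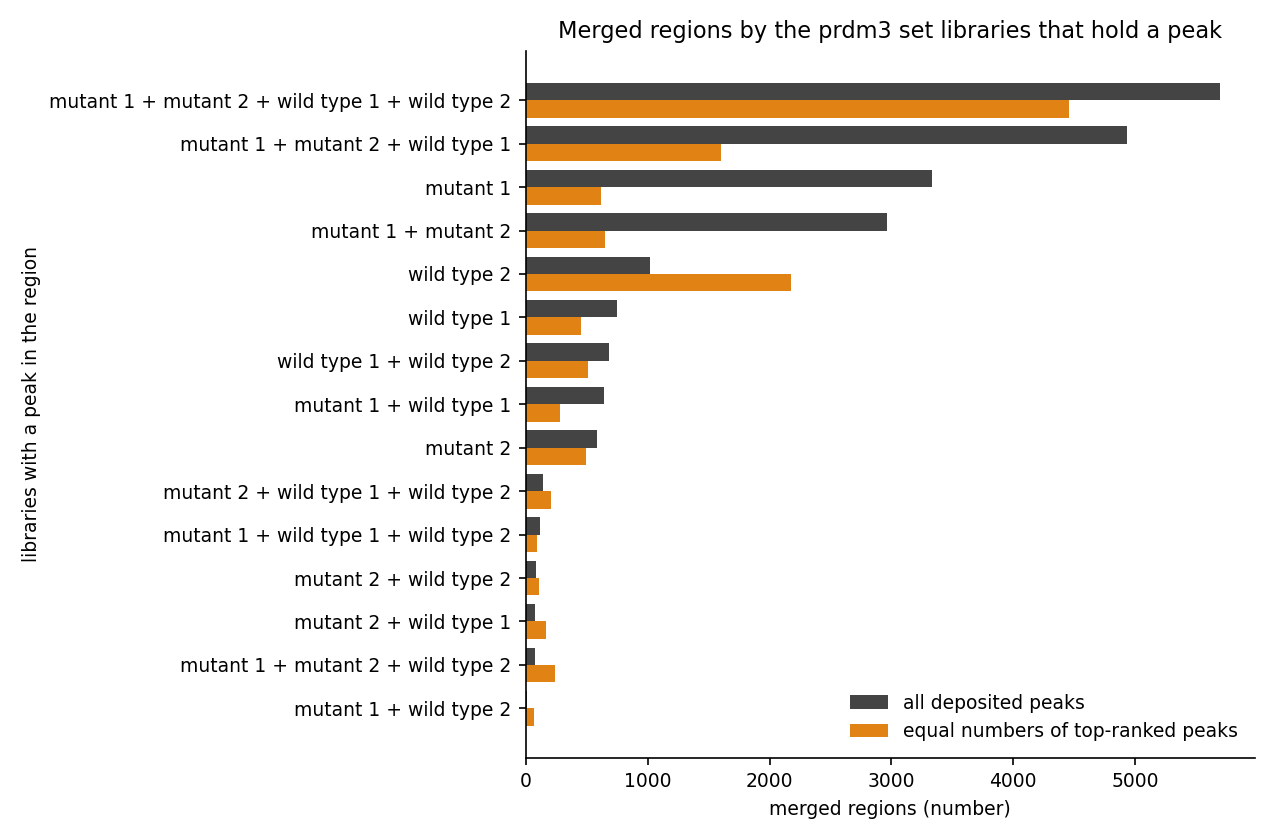
Number of merged regions (x axis) for each of the 15 combinations of prdm3 set libraries with a peak (y axis), with all deposited peaks in grey and with the 8187 top-ranked peaks of each library in orange. With all peaks, 2967 regions were held by both mutants only and 685 by both wild types only, and with equal numbers the counts were 646 and 507.

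With equal numbers of peaks per library most of this asymmetry was no longer there. When each library was held to its 8187 top-ranked peaks, the number in the smallest library, there were 12107 regions. Of these, 646 (5.34%) were held by both mutants and neither wild type, and 507 (4.19%) by both wild types and neither mutant. At 4093 peaks per library the order was the other way round, with 284 regions for the mutants and 307 for the wild types. The largest class after the core of 4459 regions was then wild type replicate 2 alone, with 2177 regions, against 619 for mutant replicate 1 alone. The cut lay at a −log10 p of 4.32, 4.03 and 3.85 in mutant replicates 1 and 2 and wild type replicate 1, while wild type replicate 2 kept all its peaks, down to the lowest deposited. The excess of mutant only over wild type only regions thus went from 2282 with all peaks to a much smaller one with equal numbers, and wild type replicate 2, kept whole, held the most regions of its own.

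The strongest peaks were shared across genotype, and the libraries parted at lower ranks, earliest where mutant peaks were sought in wild type replicate 2. Each library was split by rank into 10 groups of like size. Of the peaks in the strongest group of mutant replicate 1, 99.9% overlapped a peak of mutant replicate 2, 100% a peak of wild type replicate 1 and 97.9% a peak of wild type replicate 2. In rank group 3 these shares were 99.3%, 96.1% and 53.7%, and in rank group 5 they were 87.1%, 71.0% and 18.7%. In the weakest group they were 35.4%, 26.9% and 15.7%. Seen from wild type replicate 2, the strongest group overlapped the mutants in 99.3% and 100% of peaks, rank group 5 in 89.7% and 91.6% and the weakest group in 15.6% and 15.8%. Wild type replicate 1 held 35.9% of the peaks in that weakest group. The least ranked peaks of wild type replicate 2 were thus more often found again in the other wild type library than in either mutant, which was not tested. Seen from wild type replicate 1 the order was the other way round. Its rank group 5 overlapped mutant replicates 1 and 2 in 97.2% and 93.6% of peaks and wild type replicate 2 in 44.7%. In its weakest group these shares were 41.8%, 36.6% and 34.4%. With equal numbers of peaks per library, 83.0%, 83.2% and 67.1% of its peaks overlapped these libraries in the same order. The early drop toward wild type replicate 2 was thus also seen from the other wild type library.

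**Figure D2:**
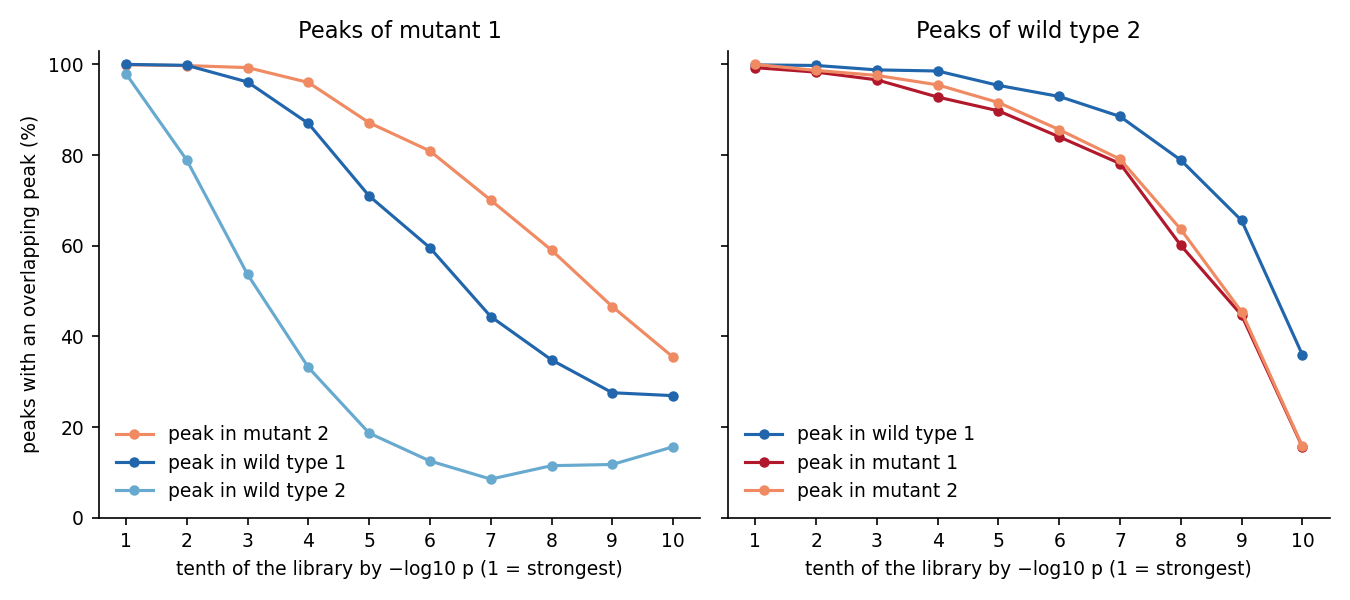
Share of peaks with an overlapping peak in another library (y axis, percent) by rank group of the library in order of −log10 p (x axis, 10 groups, 1 for the strongest), for mutant replicate 1 on the left and wild type replicate 2 on the right. In rank group 5 of mutant replicate 1 the share was 87.1% for the other mutant, 71.0% for wild type replicate 1 and 18.7% for wild type replicate 2.

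The regions found in the mutants only were narrow and of low to middle rank. Their median peak width was 522 bp in mutant replicate 1 and 495 bp in mutant replicate 2, and their median percentile was 31.6 and 21.5. The percentiles of the 10 named ones, chosen by the higher of the lower ranks in the pair, ran from 72.4 to 81.0 in mutant replicate 1 and from 71.2 to 78.6 in mutant replicate 2. First among them was chr25:30441420-30442231, 812 bp wide, at percentiles 77.9 and 77.7. It was followed by chr11:8566958-8567690 at 79.3 and 76.9 and by chr18:13233570-13234096 at 81.0 and 76.5. No region of this class belonged to the strongest peaks of a mutant library, the highest percentile being 82.5. In the prdm16 set wild type replicate 1, 9 of these 10 regions had a peak, the exception being chr21:26613665-26614244. Replicate 2 of that group had a peak in 0 of the 10. Over all regions the shares in these replicates were 61.8% and 29.7%. The prdm16 mutant replicates 1 and 2 held 2 and 0 of the 10, against 47.6% and 28.3% of all regions.

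The regions found in the wild types only were wider and of low rank within their own libraries. Their median peak width was 771 bp in wild type replicate 1 and 800 bp in wild type replicate 2, at median percentiles of 7.12 and 19.2. The area per base, ranked in the same way, gave median percentiles of 7.70 and 19.7, against 32.1 and 22.3 for the regions of the mutants only. Percentiles come from lists of unequal length, so they place a peak within its own library only. Width was not particular to this class, since the weakest of the 10 rank groups of wild type replicate 2 had a median width of 809.5 bp as a whole, and regions of that library alone had 734.5 bp at a median percentile of 10.97. In the weakest rank group of mutant replicates 1 and 2 the median width was 494 and 517 bp, and in wild type replicate 1 it was 598 bp. With the wild type only regions split by rank into 4 groups of like size, the median merged width was 1251.5 bp in the weakest group and 679 bp in the strongest, while for the mutant only regions the same medians were 552.5 and 559.5 bp. The strongest by the fixed rule was chr16:666016-666932, 917 bp wide, at percentiles 68.7 and 68.2 in wild type replicates 1 and 2. Next came chr9:35871-36879 at 66.3 and 83.6 and chr17:46503266-46503449 at 65.1 and 86.9. Of the 10 named regions, 7 had a peak in the prdm16 set wild type replicate 2 and 2 in replicate 1, against 29.7% and 61.8% of all regions. The prdm16 mutant replicates 1 and 2 held 6 and 8 of the 10, against 47.6% and 28.3% of all regions.

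**Figure D3:**
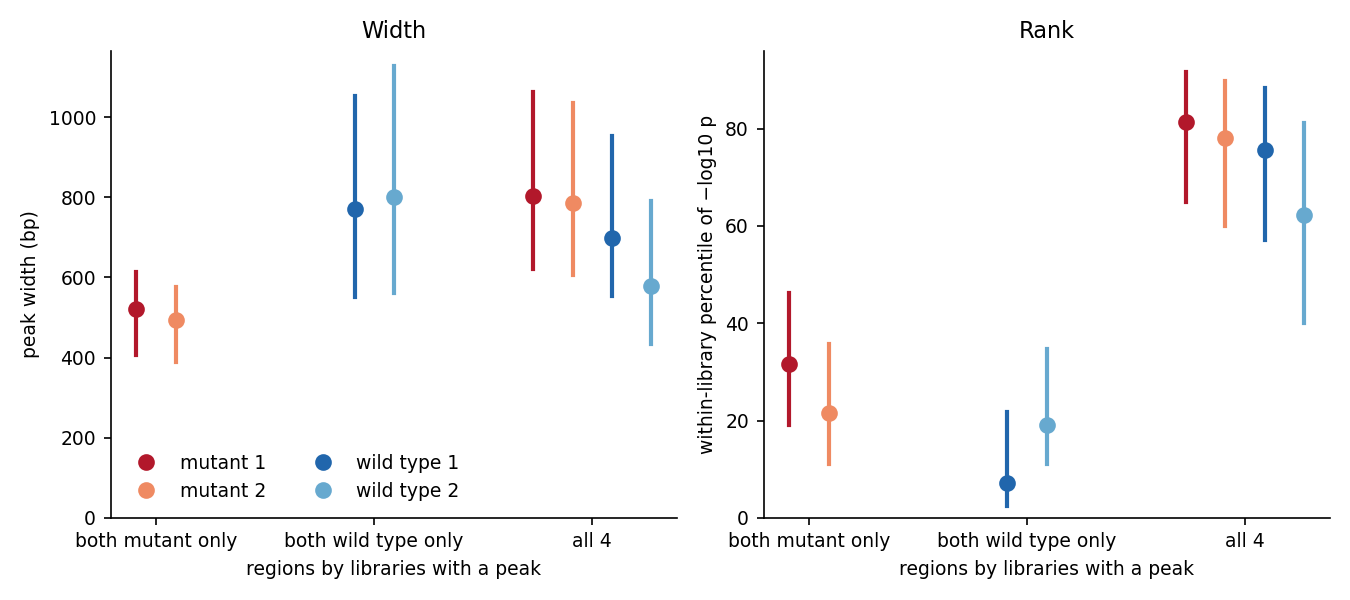
Median (point) and quartiles (line) of the peak width in bp (left) and of the within-library percentile of −log10 p (right) for regions in both mutants only, in both wild types only and in all 4 libraries. Wild type only peaks had medians of 771 and 800 bp at percentiles of 7.12 and 19.2, and mutant only peaks medians of 522 and 495 bp at 31.6 and 21.5.

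Over all peaks the median width did not separate the genotypes. It was 583 and 593 bp in the mutants and 581 and 604 bp in the wild types, a difference of -4.50 bp (exact permutation test, p = 1). Among the 8187 top-ranked peaks the medians were 732 and 700 bp in the mutants and 629 and 604 bp in the wild types. Both mutants lay above both wild types there, by 99.5 bp on average (exact permutation test, p = 0.333). Width varied with rank, with medians of 974 bp in the strongest and 494 bp in the weakest of the 10 rank groups of mutant replicate 1. In wild type replicate 2 it did not fall throughout, with medians of 1147 bp in the strongest group, 506.5 bp in rank group 7 and 809.5 bp in the weakest. The cut took weaker peaks from the larger libraries and none from wild type replicate 2. The part of the cut in the width difference was not tested. In the peaks of the shared core the medians were 804.5 and 785 bp against 698 and 579 bp, and wild type replicate 2 was the narrowest. Peaks wider than 2 kb made up 1.66% and 2.08% of the mutant peaks and 2.72% and 4.81% of the wild type peaks, although their number differed less, at 304, 314, 371 and 394. Wild type replicate 2, with the fewest peaks, had the highest share of such peaks, and the part of peak number in it was not tested.

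Regions at the very top of the ranking were shared by all 4 libraries. Outside the rule for named regions and chosen after its values were seen, chr11:15106727-15116075 lay at percentile 99.99 in each of the 4 libraries. The widest region on a chromosome was chr8:34770676-34796744, with summed peak widths of 22916 and 24393 bp in the mutants and 25095 and 26069 bp in the wild types. On chromosome 4, chr4:49372615-49391290 was covered over 17746 and 18653 bp by wild type peaks but over 2379 and 7147 bp by mutant peaks. This was the region among the 10 widest with the greatest loss of covered length in the mutants.

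Within the shared core, most regions ranked higher in the mutants, but this too depended on the ranking. The median percentile was 82.3 and 78.9 in the mutants and 76.4 and 62.3 in the wild types, a difference of 11.2 (exact permutation test, p = 0.333). The difference was 3.40 with equal numbers of peaks, 4.19 without wild type replicate 2 and 18.3 without wild type replicate 1. Both mutant percentiles lay above both wild type percentiles in 3355 of 5698 regions (58.9%) and below both in 803 (14.1%). A percentile depends on how many weak peaks a library holds. When the core regions were ranked anew among themselves, a choice made after seeing the data, 2114 (37.1%) ranked higher and 1183 (20.8%) lower in both mutants. With equal numbers of peaks, 1707 of 4459 regions (38.3%) ranked higher and 686 (15.4%) lower. By area in place of −log10 p, 3491 (61.3%) ranked higher and 710 (12.5%) lower, and by summed peak width 3048 (53.5%) were wider and 826 (14.5%) narrower in both mutants. Higher regions outnumbered lower ones by each of these measures, by least when ranked anew. Ranking anew gives every library the same mean percentile, so the counts from it cannot show a general gain of rank in the mutants. Spearman's rho across the 5698 regions was 0.92 between the mutants and 0.80 between the wild types. Between genotypes it was 0.77 and 0.55 for mutant replicate 1 and 0.80 and 0.65 for mutant replicate 2, each with wild type replicates 1 and 2 in that order.

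The region with the largest shift toward the mutant was chr22:3182305-3182906. It lay at percentiles 78.5 and 75.5 in the mutants and at 19.1 and 19.2 in the wild types, with a peak of 565 to 590 bp in every library. Next were chr17:19336081-19337041, at 64.4 and 65.9 against 11.4 and 13.7, and chr13:48708164-48708659, at 52.0 and 50.6 against 3.72 and 3.97. A different form of change was seen at chr3:23574776-23576217, where peaks spanned 1438 bp in both mutants and 477 and 469 bp in the wild types. All 10 named regions of this direction had a peak in the prdm16 set wild type replicate 1, and 5 had one in replicate 2. Of the whole shared core, 97.2% and 85.2% of regions had a peak in these replicates. The gap between the lower mutant and the higher wild type percentile was 40.7 to 56.3 points in these 10 regions, which were chosen for that gap and carry no test.

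In the opposite direction, 4 of the 10 regions with the largest shift lay close together on chromosome 4. The first, chr4:53419172-53422062, lay at percentiles 1.55 and 2.97 in the mutants and at 67.5 and 66.8 in the wild types, with summed peak widths of 1453 and 1467 bp against 2600 and 2891 bp. Its neighbours chr4:53413661-53416282, chr4:53422702-53425225 and chr4:53499699-53501861 had percentiles of at most 9.64 in the mutants and at least 62.1 in the wild types. Away from chromosome 4, chr6:60191239-60192127 lay at 23.0 and 27.4 against 88.4 and 90.6, and chr16:18325658-18330902 at 4.94 and 15.6 against 78.0 and 88.7. Of the 10 named regions of this direction, 7 had a peak in the prdm16 set wild type replicate 1 and 9 in replicate 2. In the whole core these shares were 97.2% and 85.2%. Between 53 and 54 Mb of chromosome 4, limits set after these values were seen, all 34 regions of the shared core ranked lower in both mutants. In the whole core 14.1% did so. The stretch holds the 4 regions above, which were chosen for their gap. Of the 49 regions there, 5 were held by both wild types only and 0 by both mutants only, against 3.25% and 14.1% of all regions. In the 23 of these regions that all 6 libraries held, ranked among the 4745 regions of those libraries, the median percentile was 2.34 and 2.39 in the mutants and 24.1 and 53.3 in the wild types. It was 1.72 and 17.0 in the prdm16 set wild types, so a wild type library had the lowest median rank there.

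Chromosome 4 was also where the distribution of peaks over chromosomes differed most. The long arm of this chromosome is known in zebrafish as gene-poor for ordinary genes, rich in repeats and duplicated gene families, and late replicating, that is, heterochromatic. Chromosome 4 held 4.48% and 4.93% of the peaks in the mutants and 5.62% and 7.67% in the wild types. Both mutants lay below both wild types, with a difference of -1.94 percentage points (exact permutation test, p = 0.333, adjusted p = 0.510 over 25 chromosomes and the unplaced sequences as 1 group). The difference was -0.91 without wild type replicate 2. The prdm16 set wild types had 4.70% and 7.22%, so that 1 wild type fell between the 2 mutants. The prdm16 mutants, with 10682 and 6590 peaks, had 5.99% and 7.66%. Over the 8 ATAC libraries the share was mostly higher where the number of peaks was lower. The part of peak number in the difference was not tested. With equal numbers of peaks the shares were 3.97% and 4.63% against 5.09% and 7.67%.

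The difference on chromosome 4 came from its middle part. Between 30 and 70 Mb, limits set after the values were seen, wild type replicates 1 and 2 had 402 and 410 peaks and mutant replicates 1 and 2 had 256 and 280. This is a stretch where the wild types of the set had more peaks despite their smaller totals. From 0 to 30 Mb the order was that of the whole libraries, with 465 and 384 peaks in the mutants and 296 and 167 in the wild types. The same order was found from 70 Mb to the end, with 98 and 81 peaks against 69 and 51. As shares of all peaks these were 0.54% and 0.54% against 0.51% and 0.62%. Of the 118 regions in that end part, 14 were held by both mutants only and 3 by both wild types only. Of the 559 regions between 30 and 70 Mb, 71 (12.7%) were held by both wild types only and 8 (1.43%) by both mutants only, against 3.25% and 14.1% of all regions. These 71 regions are 10.4% of all wild type only regions. Of its 155 regions of the shared core, 114 (73.5%) ranked lower and 8 (5.16%) higher in both mutants, against 14.1% and 58.9% in the whole core. Peaks here were wide, with medians of 648 and 714 bp in the mutants and 758 and 802.5 bp in the wild types. The prdm16 set wild types had 246 and 293 peaks in this stretch, 1.75% and 4.32% of their totals, beside 1.40% and 1.85% in the prdm3 mutants and 2.94% and 5.01% in the wild types of the set. Replicate 1 of the outside wild types was thus between the mutants in this share and replicate 2 between the wild types. In number of peaks, neither outside wild type reached the wild types of the set. Replicate 1 lay below both prdm3 mutants, and replicate 2 lay just above them. The prdm16 mutants had 350 and 300 peaks here, 3.28% and 4.55% of their totals.

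**Figure D4:**
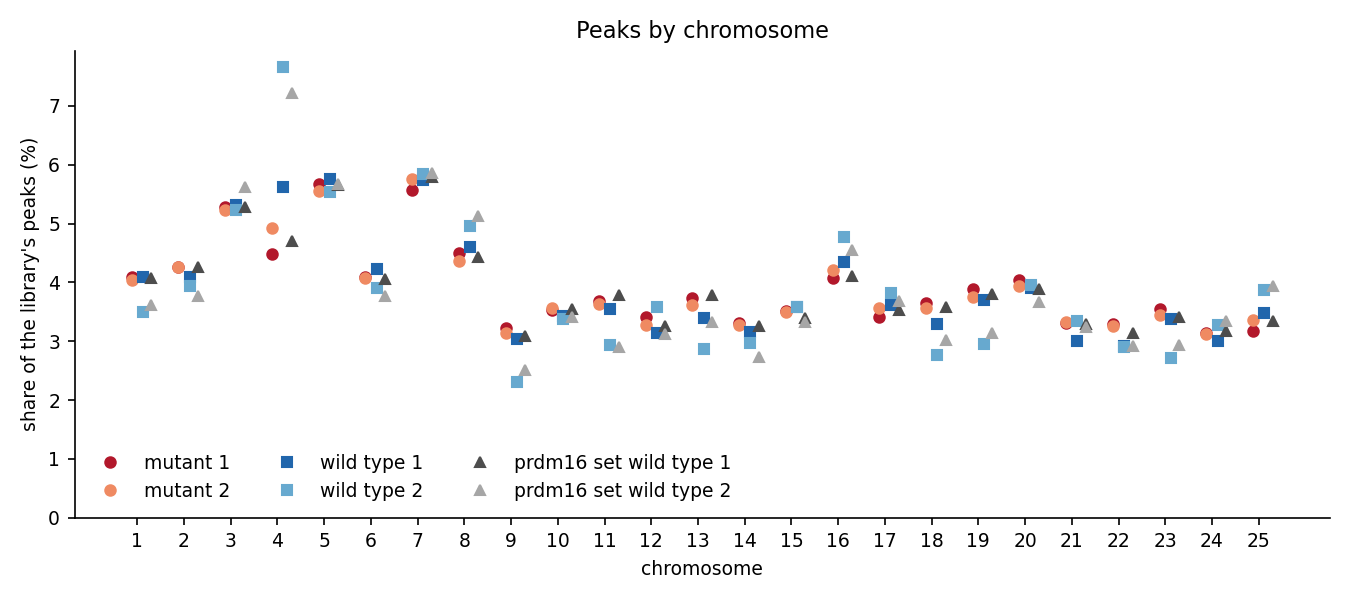
Share of each library's peaks (y axis, percent) on each of the 25 chromosomes (x axis) for the prdm3 mutants (circles), the wild types of the set (squares) and the wild types of the prdm16 set (triangles). On chromosome 4 the mutants were at 4.48% and 4.93% and the wild types of the set at 5.62% and 7.67%, with the outside wild types at 4.70% and 7.22%.

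Other chromosomes differed by smaller amounts. The shares of a library add up to its whole, so a lower share on chromosome 4 goes with higher shares elsewhere, and these differences are not independent. Both mutants had a higher share than both wild types on 10 of 25 chromosomes (40%) and a lower share on 6 (24%), and with equal numbers of peaks on 11 (44%) and 4 (16%). The largest rise was on chromosome 18, with 3.65% and 3.57% of mutant peaks and 3.30% and 2.76% of wild type peaks, a difference of 0.58 percentage points. Chromosomes 13, 9 and 19 followed, with differences of 0.53, 0.51 and 0.50. Lower shares besides chromosome 4 were found on chromosomes 25, 16, 8, 17 and 15, with differences of -0.41, -0.41, -0.35, -0.23 and -0.07. Each had p = 0.333 in the exact permutation test and an adjusted p of 0.510. When the 2 wild types of the prdm16 set were added, 5 chromosomes were higher and 0 lower in both mutants. Among 145 windows of 10 Mb with at least 20 regions, wild type only regions outnumbered mutant only regions in 7, and 4 of these 7 were on chromosome 4. The highest share of wild type only regions off chromosome 4 was 14.8% of 203 regions, between 20 and 30 Mb of chromosome 25. Mutant only regions made up at most 26.4% of a window, among the 208 regions between 10 and 20 Mb of chromosome 22.

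Sequences not placed on a chromosome held 2.11% and 2.21% of mutant peaks and 2.56% and 3.36% of wild type peaks. In number these were 385 and 334 peaks in the mutants and 349 and 275 in the wild types. Within the set the counts thus overlapped between genotypes while the shares did not. Across all 8 ATAC libraries, however, the unplaced share was higher the lower the number of peaks, in wild types and mutants alike. The prdm16 set wild type replicate 1 lay between the prdm3 mutants and the wild types of the set. The prdm16 mutants had 2.88% and 3.78%. The part of peak number in the difference was not tested. Near the chromosome ends, within 1 Mb of the outermost peak, lay 6.42% of the mutant only regions and 5.47% of the wild type only regions on chromosomes. The shared core had 9.15% there and all regions 7.20%. Wild type only regions lay beside a core region more often than mutant only regions, with 24.96% of 681 within 5 kb of one, against 10.9% of 2939. The median distances of these classes were alike, at 70.2 and 67.7 kb. The share over all regions was not computed, so neither class can be set against a background. Wild type only regions were also wider as merged, with a median of 925 bp against 551 bp. Of them, 10.4% lay between 30 and 70 Mb of chromosome 4, against 0.27% of mutant only regions. The part of width and place was not tested.

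Of the 4 outside libraries, 1 held mutant only regions about as often as regions in general, and the remaining 3 held them less often. Of the 2967 mutant only regions, 1791 (60.4%) had a peak in the prdm16 set wild type replicate 1, close to the 61.8% of all 21106 regions found there. Replicate 2 of that group, with 6777 peaks, held 29 of them (0.977%), against 29.7% of all regions. A peak in at least 1 of these 2 wild types was found in 1796 mutant only regions (60.5%), near the 64.3% of all regions. This leaves 1171 mutant only regions without a peak in any of the 4 wild types. The prdm16 mutants held 23.7% and 1.72% of the mutant only regions, against 47.6% and 28.3% of all regions. The share in the outside wild type replicate 1 rose with the rank of the region, from 47.3% in the weakest of 4 rank groups to 72.6% in the strongest. A rise with rank was also seen in prdm16 mutant replicate 1, from 19.54% to 28.2%, and among wild type only regions, so it was not particular to that library.

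The wild type only regions were seldom found in the outside wild type replicate 1 and were near the background in replicate 2. Of the 685, 45 (6.57%) had a peak in replicate 1, against 61.8% of all regions, and 210 (30.7%) in replicate 2, against 29.7%. The prdm16 mutants held 29.9% and 24.5%, against 47.6% and 28.3% of all regions. In the strongest of 4 rank groups the share was 12.9% in wild type replicate 1 of that set and 55.6% in replicate 2, and 58.5% and 53.8% in the prdm16 mutants. No peak in any of the outside 4 libraries was found for 375 wild type only regions (54.7%) and for 1029 mutant only regions (34.7%), against 32.6% of all regions.

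**Figure D5:**
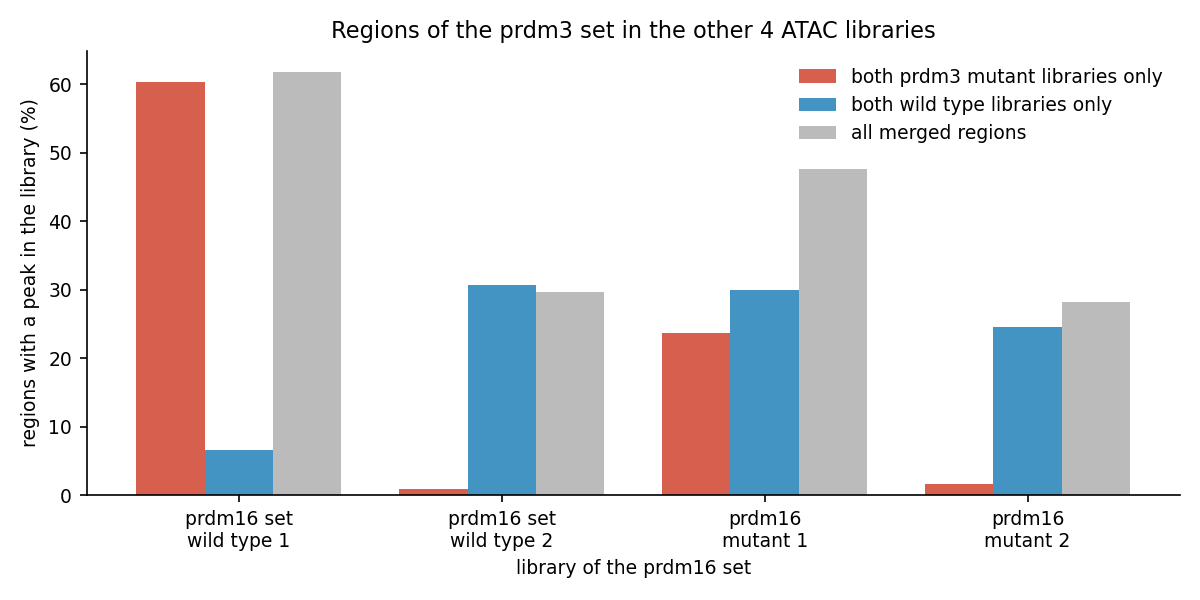
Share of regions with a peak (y axis, percent) in each of the 4 libraries of the prdm16 set (x axis), for prdm3 mutant only regions, wild type only regions and all merged regions. The outside wild type replicate 1 held 60.4% of the mutant only and 6.57% of the wild type only regions, and replicate 2 held 0.977% and 30.7%.

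Levels of rank in the shared regions can also be set side by side with the outside wild types. Among the 4745 regions with a peak in the prdm3 set and both outside wild types, 1826 (38.5%) ranked higher in both prdm3 mutants than in both wild types of the set. A further 994 (20.9%) ranked lower. In the shared core ranked anew these shares were 37.1% and 20.8%. For the 994 lower regions the median percentile was 16.2 and 22.8 in the prdm3 mutants and 59.7 and 76.4 in the wild types of the set, values that follow from how they were chosen. In the outside wild types, which had no part in that choice, it was 22.6 and 68.5. For the 1826 higher regions it was 62.7 and 60.8 in the mutants and 46.2 and 41.4 in the wild types of the set, and 60.6 and 49.5 in the outside wild types. The outside wild types thus differed from each other in these regions, by more in the lower than in the higher ones. Genotype and other differences between the libraries cannot be told apart with 2 libraries a group.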

How the data were processed

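ATAC peak lists, 1 per library, were deposited by the authors. The submitters' processing notes list, with no role or order, the build danRer11 and the tools Genrich, Bowtie2 2.4.4, bedtools 2.30.0 and cutadapt, and no source used here gives parameters. The smallest deposited area of a peak was 200.0 in each of the 4 libraries of the prdm3 set. The deposited score of each peak is its area over its width, scaled and capped. The deposited signal is the area under the peak, and the deposited −log10 p is that of the authors' peak caller. The last served to rank peaks within a library (ties averaged, highest peak of a region), since values of libraries of unknown depth are not comparable.

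Peaks were merged at an overlap of 1 bp or more with Python 3.11.15 and pandas 2.3.3, on code tested on simulated data. Groups came from the sample titles. Two-sided exact permutation tests ran over libraries, with Benjamini-Hochberg adjustment over chromosomes. Their p-value is the share of relabellings of the libraries with a difference at least as large, and it speaks only for these samples. Named regions are the 10 with the highest lower percentile among group-only regions and the 10 with the largest rank gap among shared regions, per direction. Members and rules were chosen with earlier results of these data known. Distances to gene starts, gene lists, region sequences and the RNA tables were planned and not analysed here, for want of gene positions on danRer11. Alternatives were a −log10 p of 3 or more, equal peak numbers, ranking by area, other overlaps, leaving out each library, the replicate block, and adding the outside wild types.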

Additional observations from a re-analysis of the deposited data

How the results depend on the processing

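Peak number and the share on chromosome 4 kept their direction under every alternative run, with log2 differences of 0.28 to 1.02 and share differences of -2.96 to -0.91 points when 1 library was left out. Regions of both mutants only numbered 646 with equal numbers of top-ranked peaks, 284 at the smaller number, 747 with equal numbers ranked by area, and 1171 with the outside wild types (added, like the ranking anew, after seeing the data), where no peak is asked of more libraries. Leaving out 1 library gave 3040 to 7915. Regions of both wild types only numbered 307 at the smaller number and 801 to 1732 with 1 library left out. The width difference of -4.50 bp reversed to 3.50 bp at a −log10 p of 3 or more, 99.5 bp with equal numbers, 156 bp in shared regions and 0.75 bp with the outside wild types, and ran from -16.0 to 7 bp with 1 library left out; the cause was not tested. Shared regions ranked higher in the mutants numbered 1707 with equal numbers, 2114 when ranked anew and 3581 to 6361 with 1 library left out, where more regions are shared, and lower ones 953 to 1988. Chromosomes with a higher share numbered 10 to 14 with 1 library left out and 5 with the outside wild types, and those with a lower share 7 to 10 and 0. The titles give both groups the replicate numbers 1 and 2, and no other label ties equal numbers together. In every ATAC group of the series, however, replicate 1 had more peaks and a lower chromosome 4 share than replicate 2. Whether the replicate numbers stand for a shared handling was not tested. With the replicate block the log2 difference in peak number was 0.65 (exact sign-flip test, p = 0.5, the smallest that 2 pairs allow). The width and chromosome 4 differences were then -4.50 bp and -1.94 points. The share of peaks at gene starts was not run. Unknown depth limits every absence of a peak.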
